A study of Mus musculus with 20 samples.

Results

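The 10 cytosolic chaperone genes described here were measured in the retina of young and old mice with and without NACET. They are 10 of the 35006 genes of the count tables, and they were chosen by name, with earlier results of these data known. They are Hspa8, Hspa1a and Hspa1b of the HSP70 family, Hspa4, Hspa4l and Hsph1 of the HSP110 family, Hsp90aa1 and Hsp90ab1 of the HSP90 family, and the J-domain genes Dnajb1 and Dnaja1. All 10 had counts in every library and passed the filter on low counts in each comparison. NACET is N-acetylcysteine ethyl ester, a cell-permeable precursor of cysteine and glutathione. The mice were wild-type C57BL/6J, and the treated animals took it in their drinking water for 5 days at a daily dose of 50 mg/kg, while controls drank water without it.

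The 20 polyA RNA-seq libraries formed 4 groups. Young control retina (n = 4) came from mice of 119 days, 2 labelled male and 2 female. Young NACET retina (n = 6) came from 4 labelled males of 129 days and 2 labelled females whose titles give 119 days. Old control retina (n = 4) came from mice of 668 days labelled male, and old NACET retina (n = 6) from mice labelled male of 668, 581 and 574 days, 2 of each age. The NACET and control mice of the old groups therefore shared an age in 2 of the 6 treated libraries. Per the study's methods 1 retina of each mouse went to RNA-seq, so the libraries of a group are separate mice and the spread between them includes that between animals.

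The libraries held 17.7 to 31.1 M gene counts. The counting error of the chaperones was 0.888 to 4.59% (Poisson CV of a group's mean count), against a CV between replicates of 2.63 to 17.2%. Rod, Muller glia and ganglion cell markers were present in all 20 libraries. Old NACET replicate 1 held lens transcripts, with 5 lens markers summing to 7069 CPM (gene counts scaled to the library total) against at most 14.9 CPM elsewhere, and the 4 corneal epithelium markers summed to 384 CPM in old control replicate 2 and 364 CPM in young NACET replicate 4. Old control replicate 4, labelled male, expressed Xist. The chaperone calls in old mice are given with and without each of the old libraries named here.

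HSP70 proteins bind exposed hydrophobic stretches of unfolded proteins in cycles driven by ATP. J-domain proteins deliver the client and start ATP hydrolysis, HSP110 proteins release the nucleotide, and HSP90 receives clients from HSP70 through the adaptor STIP1 and finishes their folding. Heat shock factor 1 raises the inducible members when unfolded proteins accumulate, and photoreceptors, which renew their outer segments daily, depend on this folding machinery. From this general knowledge, not from these data, Hspa1a, Hspa1b, Dnajb1, Hsph1 and Hsp90aa1 were classed as stress-induced, and Hspa8, Hspa4, Hspa4l, Hsp90ab1 and Dnaja1 as constitutive. The classes are not sharp, since Hsph1 and Hsp90aa1 are also well expressed in unstressed tissue.

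Heat shock factor 1 binds repeats of the unit NGAAN in alternating orientation, the heat shock element. Promoter sequence, taken from RefSeq on GRCm38.p6 as 250 bases before to 50 bases after each transcription start, was at hand for 7 of the 10 genes (not Hspa8, Hsp90aa1 or Hsp90ab1) and was searched for pairs of units, GAANNTTC or TTCNNGAA, the 2 forms being searched on both strands and allowed to overlap. A pair was found in 4 of the 7 genes (Hspa1a, Hspa1b, Hsph1 and Dnaja1), against 17.0% of all 27025 genes with a promoter and 15.1% of all 32851 promoter windows. A run of 3 units, in which a further GAA or TTC follows the pair after 2 bases in alternating orientation, was found for Hsph1 only among the 7, against 0.662% of genes and 0.603% of windows. The windows around the first pair are shown because they separate the members by an element that was independent of the counts, with the pair in capitals, on the strand of the gene.
Hspa1a, chr17:34972233-34972280 (-): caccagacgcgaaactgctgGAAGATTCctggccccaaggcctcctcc
Hspa1b, chr17:34959315-34959362 (-): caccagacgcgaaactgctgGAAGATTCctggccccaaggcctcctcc
Hsph1, chr5:149636342-149636389 (-): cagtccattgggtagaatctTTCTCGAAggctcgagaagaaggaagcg
Dnaja1, chr4:40722324-40722371 (+): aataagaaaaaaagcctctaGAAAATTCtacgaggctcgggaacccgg
Hsph1, run of 3 units, chr5:149636280-149636308 (-): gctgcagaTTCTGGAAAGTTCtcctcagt
The Hspa1a and Hspa1b windows are the same letter for letter, and their promoters were identical at 296 of 300 aligned bases (98.7%). The Hsph1 run of 3 units lies after the transcription start and itself holds 2 overlapping pairs, which makes 3 pairs in its promoter. The Dnaja1 pair lies in the window of 1 of its 3 start sites. These matches are letters in a window and say nothing of whether the factor was bound, and a gene without a match may have an element outside the window.

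Sequence identity also limits which reads can be assigned. The 10 genes lie on mm9, the build of the alignments, at chr9:40609067-40613283 (Hspa8), chr17:35106144-35109069 (Hspa1a), chr17:35093381-35096183 (Hspa1b), chr11:53073316-53113959 (Hspa4), chr3:40548417-40600025 (Hspa4l), chr5:150416862-150438951 (Hsph1), chr12:111928815-111940938 (Hsp90aa1), chr17:45704724-45710220 (Hsp90ab1), chr8:86132074-86135801 (Dnajb1) and chr4:40669183-40684182 (Dnaja1). Of the 50-base windows of their exons, 100% were found once in the genome for Hspa4 and Hsph1, and 97.2 to 99.3% for Hsp90ab1, Hspa4l and Dnajb1. The share was 86.1% for Dnaja1, 68.6% for Hsp90aa1 and 68.5% for Hspa8. For Hspa8 the merged exons cover 4.156 kb, against 2.394 kb for its longest coding transcript. Its share over that transcript alone was not computed and may be lower. It was only 40.6% for Hspa1a and 37.7% for Hspa1b, whose remaining windows (59.4% and 62.3%) were shared with each other. Reads with several alignments were set aside in the authors' counting, so the levels of Hspa1a and Hspa1b rest on the smaller part of their length and are uncertain.

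**Figure D1:**
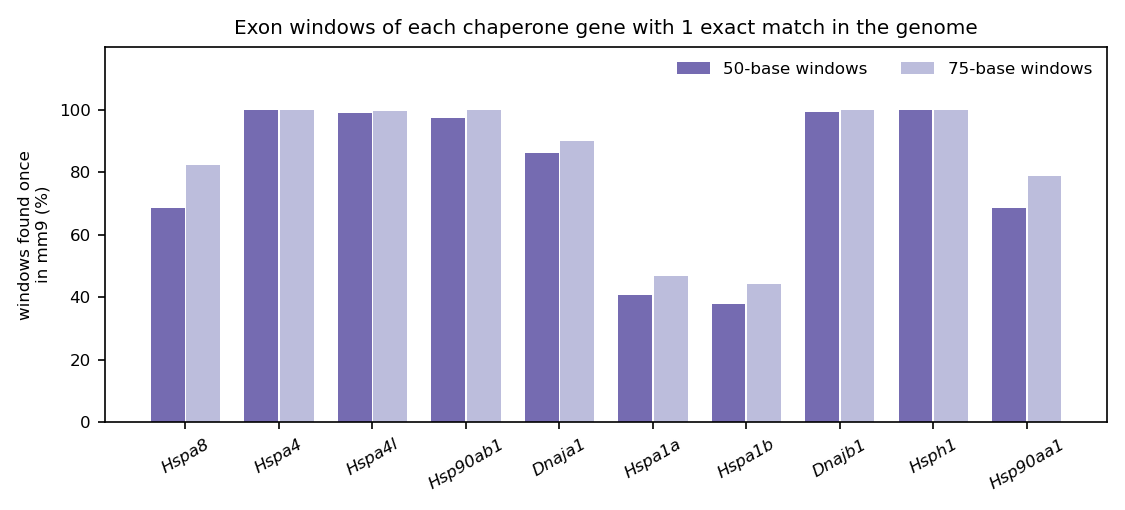
Share of exon windows (%, y axis) of each chaperone gene (x axis, constitutive genes first) that match 1 place in mm9, for windows of 50 and 75 bases. Hspa1a and Hspa1b stand lowest, at 40.6% and 37.7% for 50 bases, followed by Hspa8 and Hsp90aa1 at 68.5% and 68.6%.

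The retina expressed the HSP90 genes at the highest level of the 10. Levels between genes were compared as CPM per kilobase of merged exons, over all 20 libraries. Hsp90ab1, the constitutive HSP90, stood at 188 ± 19.9 CPM per kb (SD, n = 20), and Hsp90aa1, its inducible paralog, at 110 ± 10.9. Then came Hspa4 (45.9 ± 1.99), Hspa8 (45.2 ± 6.60) and Hspa4l (42.0 ± 2.39), which could not be ordered: Hspa4 was above Hspa8 in 11 of 20 libraries, and Hspa8 above Hspa4l in 13 of 20. Hspa8, the housekeeping HSP70, was the more variable of these 3. Dnajb1, the J-domain partner of inducible HSP70, stood at 22.8 ± 3.00 and was below Hspa4l in all 20 libraries, and Hsph1 at 13.7 ± 1.93. By the reads assigned to them, the inducible HSP70 genes were low but present in each library, with Hspa1b at 9.96 ± 1.40 and Hspa1a at 7.74 ± 0.758 CPM per kb. Hsph1 was above Hspa1b in 18 of 20 libraries, and Hspa1b above Hspa1a in all 20. Dnaja1, a J-domain protein of general folding, stood lowest at 6.00 ± 0.630 CPM per kb. This order depends on the exon length used and on how much of each gene is unique. Levels were divided by the full exon length, although reads with several alignments were set aside. Those of Hspa1a, Hspa1b, Hspa8 and Hsp90aa1 may therefore be too low, and their places in the order are uncertain. With the longest coding transcript, Hspa8 (78.4 CPM per kb) was above Hspa4 in 20 of 20 libraries, Hsph1 (25.5) and Dnajb1 (24.9) could not be ordered, at 10 of 20 libraries each way, and Dnaja1 (9.21) was above Hspa1a in 16 of 20.

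NACET in old mice was the comparison in which chaperone genes passed the test. Of the 10, 2 rose, one of each class: Hspa8, the constitutive HSP70, and Hsph1, an inducible HSP110 that recharges it. The other 8, among them both inducible HSP70 genes, did not pass. Over all 16562 genes tested the same rule called 0.543%, or 90 genes. That number moved widely when 1 library was left out, to 8 without old control replicate 2, 12 and 13 without old NACET replicates 3 and 4, 15 without old control replicate 4, 23 and 37 without old NACET replicates 5 and 6, 43 and 54 without old NACET replicates 1 and 2, and 106 and 110 without old control replicates 1 and 3.

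Hspa8 was at 172, 148, 158 and 155 CPM in old control replicates 1 to 4. In the 6 old NACET libraries it ranged from 190.3 through a median of 218 to 226 CPM. All 6 treated libraries lay above all 4 controls, and the means were 158 ± 10.1 (SD, n = 4) and 214 ± 14.1 CPM (SD, n = 6). The log2 change was 0.43 (SE 0.06, edgeR quasi-likelihood adjusted p 0.0103), which placed it at rank 2 of all genes by p.

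Hsph1 was at 83.6, 83.6, 92.9 and 83.2 CPM in the 4 old controls. In old NACET it ranged from 97.4 through a median of 113 to 118 CPM, again with no overlap. The log2 change of Hsph1 was 0.36 (SE 0.06, adjusted p by edgeR 0.0185), at rank 13 of all genes.

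Hsp90ab1 was at 548, 486, 479 and 512 CPM in old controls and between 558 and 636 CPM (median 588) in old NACET. The groups did not overlap, although the gap between them was narrow. The log2 change was 0.22 (SE 0.05, edgeR unadjusted p 0.000707, adjusted p 0.0680), which missed the threshold, whereas DESeq2, which called 373 genes in all, called it (adjusted p 0.000790). Thus 3 of the 10 genes had groups that did not overlap, where the share over all genes tested was 3.57%. The 10 were chosen with earlier results of these data known, so the comparison with that share is a description only.

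The remaining 7 had log2 changes of -0.08 to 0.08. Hspa4, which like Hsph1 is a nucleotide exchange factor of HSP70, had a log2 change of 0.08 (SE 0.05), and Hspa4l, its testis-enriched relative, of -0.08 (SE 0.05). Hspa1a was at 21.4, 24.7, 26.4 and 19.1 CPM in old controls and between 21.0 and 24.1 CPM in old NACET, with a log2 change of -0.02 (SE 0.09). Hspa1b had a log2 change of 0.04 (SE 0.10) and Dnajb1 of 0.08 (SE 0.08). Hsp90aa1, at 403 to 449.7 CPM in old controls and 383 to 458 CPM in old NACET, had a log2 change of -0.01 (SE 0.06), and Dnaja1 of 0.07 (SE 0.08). The old control and old NACET values of these 7 overlapped.

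**Figure D2:**
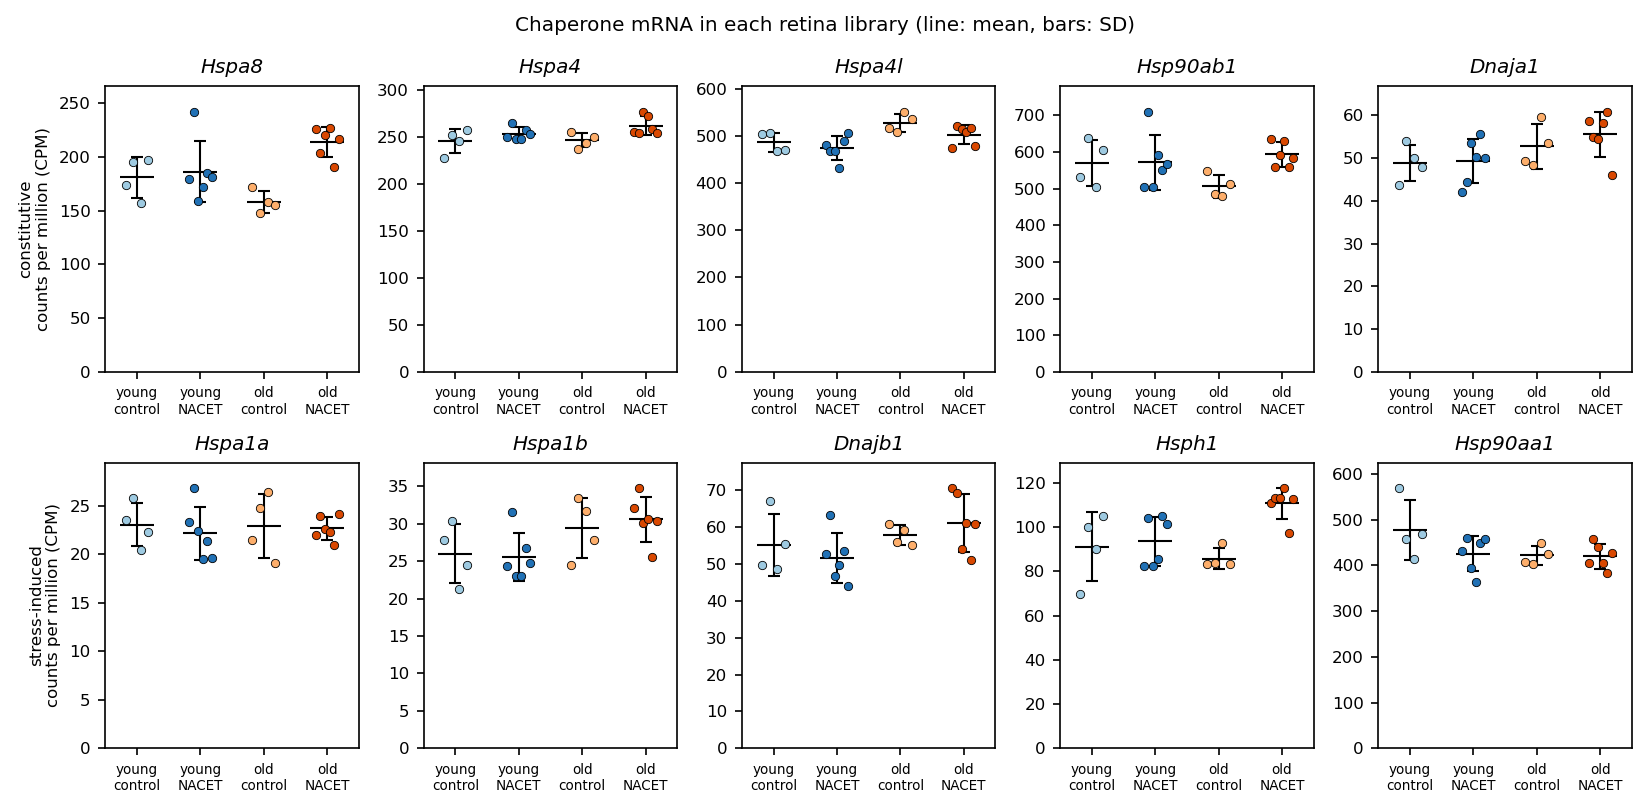
CPM (y axis, from 0) of each chaperone gene in each of the 20 libraries, by group (x axis), with the group mean (line) and SD (bars). In old NACET, all 6 points of Hspa8, Hsph1 and Hsp90ab1 lie above the 4 old control points, at 190.3 CPM or more against 172 CPM or less for Hspa8, while the points of Hspa1a and Hsp90aa1 overlap.

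The calls in old mice depended on how the spread and the age cohorts were handled, while the log2 changes of Hspa8 (0.40 to 0.47) and Hsph1 (0.33 to 0.41) moved little. Hspa8 was called in 10 of 10 fits that left out 1 library, with log2 changes of 0.40 to 0.46. Without the lens-carrying old NACET replicate 1 it was 0.42 (adjusted p by edgeR 0.0112) and without old control replicate 2 it was 0.40 (adjusted p 0.0337). Without old control replicate 4, the library with Xist, it was 0.43 (adjusted p 0.0413). Hsph1 kept its call without old NACET replicate 1 (log2 change 0.36, adjusted p by edgeR 0.0264). Hsph1 lost its call without old control replicate 2 (adjusted p 0.0706), old control replicate 4 (0.0603), old NACET replicate 3 (0.0528) or old NACET replicate 4 (0.0624). With only the 668-day mice, 4 controls against 2 treated, Hspa8 had a log2 change of 0.43 (adjusted p 0.303) and Hsph1 of 0.38 (adjusted p 0.470), and neither was called. With the cohort as a covariate the adjusted p-values were 0.0877 and 0.160, and with all 4 groups in 1 fit they were 0.0969 and 0.133. Nearly all calls were lost in these 3 fits, which called 0, 1 and 1 genes of the whole table in the order given, so the loss was not particular to the chaperones. By age, Hspa8 in old NACET was 204 and 226 CPM at 668 days, 220.1 and 226 at 581 days and 190.3 and 216 at 574 days, each above every old control.

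**Figure D3:**
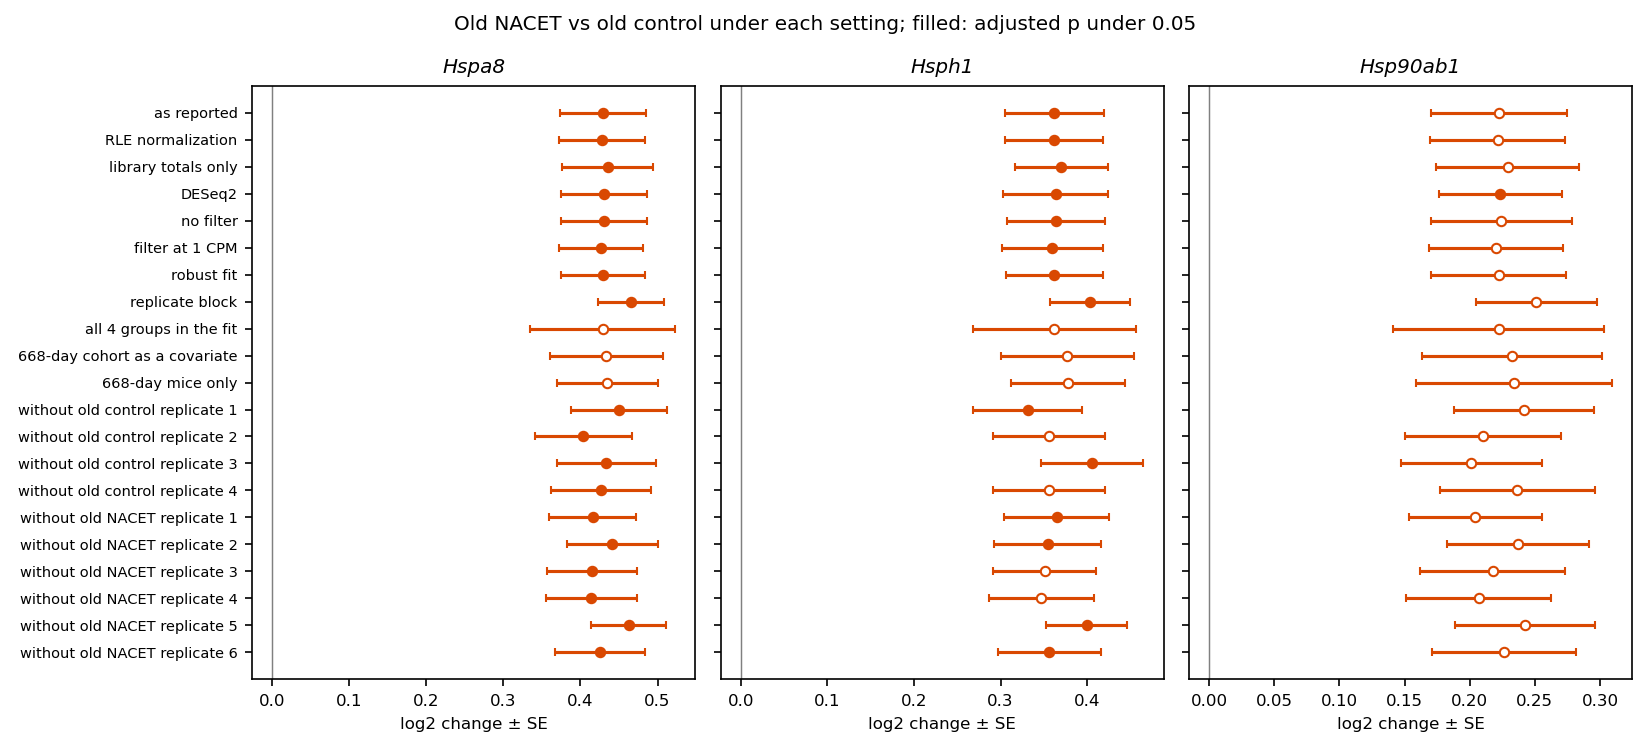
Log2 change ± SE (x axis) of Hspa8, Hsph1 and Hsp90ab1 between old NACET and old control under each setting (y axis), with filled points where the adjusted p was under 0.05. The change of Hspa8 stays between 0.40 and 0.47 while its call is lost in the fit of all 4 groups and in the 2 fits by 668-day cohort.

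Other measures also differed between the old groups. The 4 rod markers summed to 59517.5 to 72558.5 CPM in old control and 52300.2 to 62346.6 in old NACET. The 5 retinal pigment epithelium markers summed to 49.8 to 109 CPM in old control and 16.0 to 57.2 in old NACET, with none at 0 in either. The 4 corneal epithelium markers summed to 5.71, 384, 14.8 and 44.8 CPM in old control replicates 1 to 4 and to 0.396 to 8.96 CPM in old NACET. The 8 immediate early genes, which respond to stimulation and handling within minutes, summed to 94.8 to 126 CPM in old control and 74.2 to 82.3 in old NACET. Their part in the chaperone values was not tested. In whole retina, a change in the share of a cell type and a change in RNA per cell cannot be told apart.

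In young mice no chaperone gene passed the test under NACET. The count was 0 of 10 by edgeR at an adjusted p under 0.05, 0 of 10 at an unadjusted p under 0.05 and 0 of 10 by DESeq2, while edgeR called 0% of all 16588 genes and DESeq2 0 genes. By edgeR 724 genes, or 4.36%, had an unadjusted p under 0.05. Log2 changes ran from -0.17 (Hsp90aa1, SE 0.11) to 0.04 (Hspa4, SE 0.06). Hspa8 was at 174, 195, 157 and 197 CPM in young controls and ranged from 159 through a median of 180.4 to 242 CPM in young NACET. The groups overlapped, and the highest value belonged to replicate 2, which was also the highest of its group for Hspa4, Hsp90aa1 and Dnajb1, and for Hsp90ab1 (709 CPM), Hspa1a (26.8) and Hspa1b (31.5). The log2 change of Hspa8 was 0.04 (SE 0.11) and that of Hsph1, at 69.7, 100.2, 90.1 and 105 CPM in controls and 82.6 to 105 CPM under NACET, was 0.03 (SE 0.11). The standard errors were larger than in old mice for 9 of the 10 genes. None of the 10 genes had groups that did not overlap, against 0.723% of all genes.

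The change under NACET was not shown to differ between ages. By edgeR, the interaction of NACET with age called 0 of the 10 genes and 0% of the 16993 genes tested. Of all genes tested 1052, or 6.19%, had an unadjusted p under 0.05. DESeq2 called 0 of the 10 but 88 genes in all. Hspa8 had the largest interaction of the 10, a log2 difference of 0.39 (SE 0.13, unadjusted p 0.00739, adjusted p by edgeR 0.496). Hsph1 followed with 0.33 (SE 0.13, unadjusted p 0.0211, adjusted p 0.685) and Hsp90ab1 with 0.22 (SE 0.11, adjusted p 0.818). The other 7 had log2 differences of -0.03 to 0.18.

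**Figure D4:**
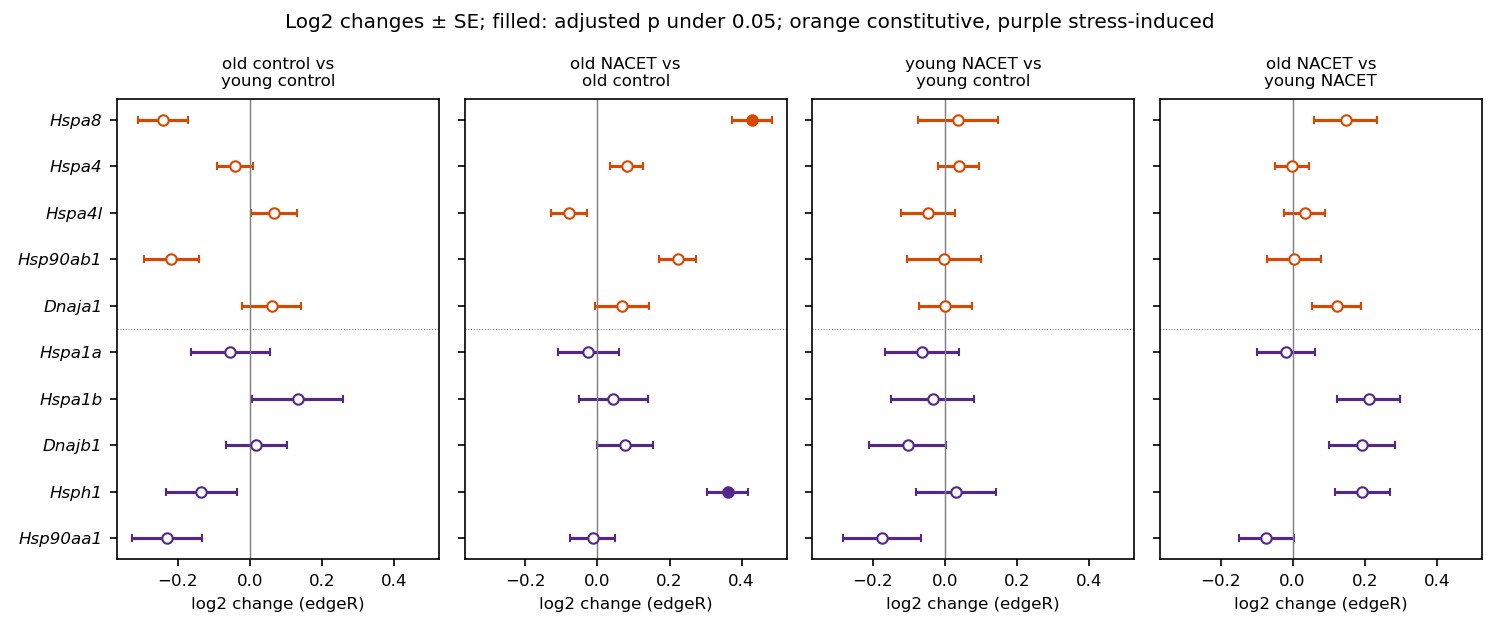
Log2 change ± SE (x axis) of each chaperone gene (y axis, constitutive in orange above, stress-induced in purple below) in 4 comparisons, with filled points where the adjusted p by edgeR was under 0.05. Hspa8 (0.43) and Hsph1 (0.36) in old NACET against old control are the 2 filled points.

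With age in control retinas, 0 of the 10 genes passed the adjusted threshold by edgeR, where 1.42% of the 16484 genes tested were called. Of the 10, 3 had an unadjusted p under 0.05, where 2687 of all genes tested, or 16.3%, had one. Those 3 were at lower values in old retina. Hspa8 had a log2 change of -0.24 (SE 0.07, adjusted p by edgeR 0.1102), Hsp90ab1 of -0.22 (SE 0.08, adjusted p 0.183) and Hsp90aa1 of -0.23 (SE 0.10, adjusted p 0.272). DESeq2, with 724 genes called in all, called 2 of them, Hspa8 (adjusted p 0.0291) and Hsp90ab1 (adjusted p 0.0453), and edgeR called Hspa8 without young control replicate 3 (log2 change -0.30, adjusted p 0.0456). Hsp90ab1 was at 532, 638, 504 and 605 CPM in young controls, which overlapped the old controls given above. Hsp90aa1 was at 568, 458, 415 and 469.6 CPM in young controls, and the highest of these, replicate 1, stood above all other 19 libraries. Young controls included females while old controls were labelled male. Among libraries labelled male, 2 young against 4 old, Hspa8 had a log2 change of -0.28 (SE 0.07, adjusted p by edgeR 0.178) and was not called. The libraries labelled male include old control replicate 4, which expressed Xist. Hsph1 had a log2 change of -0.13 (SE 0.10), Hspa1b of 0.13 (SE 0.13) and the other 5 of -0.05 to 0.07. Hspa4l was the 1 gene of the 10 without overlap, at 503, 505, 468 and 469.6 CPM in young and 518, 507, 551 and 535 CPM in old controls, with a log2 change of 0.07 (SE 0.06). Over all genes 11.3% had groups that did not overlap.

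Between old and young mice that both received NACET, 0 of the 10 genes were called by edgeR or by DESeq2, against 4.88% of 16276 genes by edgeR and 1312 genes by DESeq2. By edgeR 3438 genes, or 21.1%, had an unadjusted p under 0.05. Of the 10, 2 had an unadjusted p under 0.05, a share near that over all genes. Both were stress-induced and at higher values in old retina. Of the other stress-induced genes, Dnajb1 had a log2 change of 0.19, Hspa1a of -0.02 and Hsp90aa1 of -0.07. Hspa1b ranged from 25.5 to 34.7 CPM in old NACET and 23.0 to 31.5 in young NACET, a log2 change of 0.21 (SE 0.09, adjusted p by edgeR 0.179). Hsph1 had a log2 change of 0.19 (SE 0.08, adjusted p 0.151), and its call depended on the setting, with an adjusted p of 0.0373 when the labelled sex was a covariate and 0.0476 when counts were scaled by library totals alone. Hspa8 had a log2 change of 0.15 (SE 0.09, adjusted p 0.358), and without young NACET replicate 2 it was 0.24 (adjusted p 0.0477). None of the 10 genes had groups that did not overlap, against 4.07% of all genes. These comparisons share groups with those above, so their values are not independent of them.

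The balance between stress-induced and constitutive members was compared in each library as the difference of the mean log2(CPM + 1) of the 5 genes of each class. It was -1.73 ± 0.06 in young control (SD, n = 4), -1.79 ± 0.08 in young NACET (n = 6), -1.70 ± 0.11 in old control (n = 4) and -1.76 ± 0.11 in old NACET (n = 6). The values of all 4 groups overlapped, and no test was made of this sum over chosen genes. As a share of the summed CPM per kb of the 10 genes, the stress-induced class made up 34.9 ± 2.40% in young control, 32.8 ± 1.73% in young NACET, 34.8 ± 1.65% in old control and 32.4 ± 1.64% in old NACET. A narrower pair of classes, Hspa1a, Hspa1b and Dnajb1 against Hspa8, Hspa4 and Hsp90ab1, gave -3.16 ± 0.12, -3.24 ± 0.09, -2.96 ± 0.18 and -3.17 ± 0.12 in the same order. In that narrower contrast the old control mean was the highest of the 4, and its libraries (-3.14 to -2.81) overlapped those of old NACET (-3.28 to -2.96) but lay narrowly above the 6 young NACET libraries (-3.37 to -3.15).

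Ratios were also taken between pairs of genes, within a class and between the classes. The ratio of Hsp90aa1 to Hsp90ab1 was 0.846 ± 0.154 in young control, 0.753 ± 0.098 in young NACET, 0.836 ± 0.079 in old control and 0.710 ± 0.068 in old NACET. Its ranges overlapped between every pair of groups. The ratio of Hspa8 to Hspa4, a chaperone to an exchange factor of its own class, was 0.618 to 0.672 in old control and 0.736 to 0.881 in old NACET. The 2 ranges did not overlap, and of the 2 genes Hspa8 was the one that passed the test. The ratio of Hspa8 to Hsph1, a constitutive to a stress-induced gene, was 1.70 to 2.06 in old control and 1.80 to 2.03 in old NACET, which overlapped. The ratio of Hspa1b to Hspa1a was 1.12 ± 0.067 in young control, 1.16 ± 0.101 in young NACET, 1.29 ± 0.142 in old control and 1.35 ± 0.099 in old NACET. Because the unique part of these 2 genes is small, that ratio carries the uncertainty of both.

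**Figure D5:**
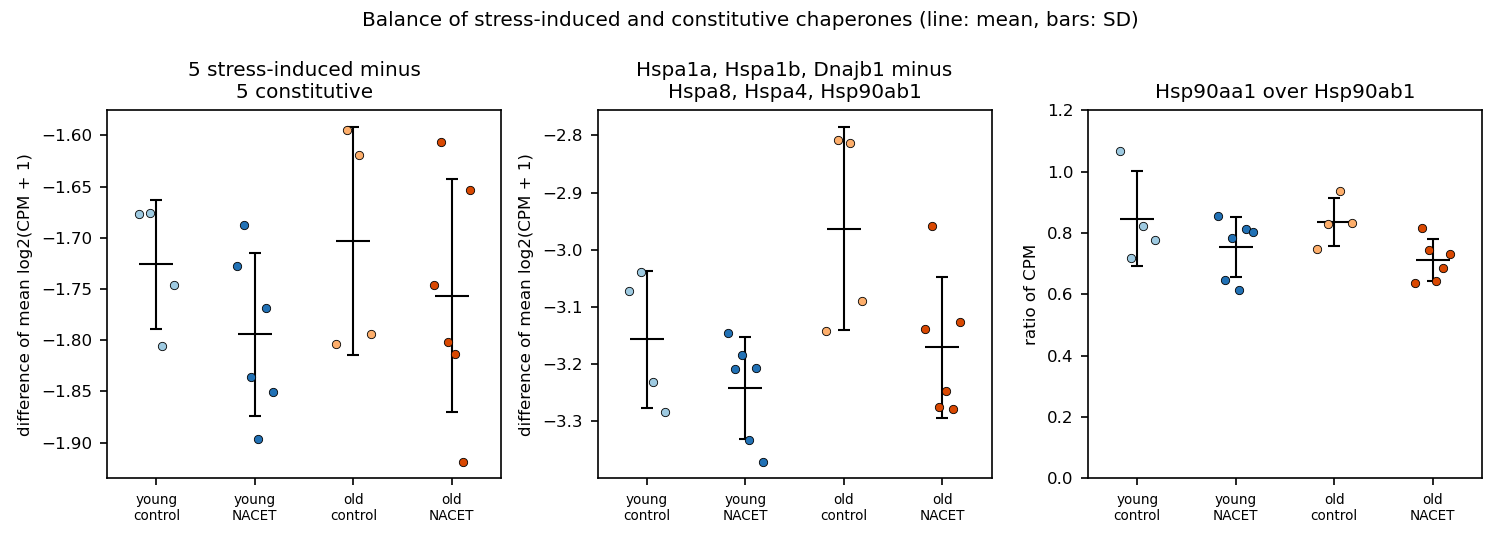
Left and middle: difference of mean log2(CPM + 1) between stress-induced and constitutive genes (y axis) in each library, for all 10 genes and for the narrower classes. Right: ratio of Hsp90aa1 to Hsp90ab1 CPM. Lines are group means and bars SD, by group (x axis). The 4 groups overlap in the left and right panels, with means of -1.79 to -1.70 for all 10 genes, and in the middle panel old control lies above young NACET.

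The 10 genes varied together to different degrees. Over the 45 pairs, Pearson's r of log2(TMM-scaled CPM + 1) across the 20 libraries ran from -0.27 to 0.87 with a median of 0.25. It is given as a description, since all genes of a library share its depth and cell makeup. After removal of group means the range was -0.27 to 0.89 with a median of 0.38, and 38 of the 45 pairs were above 0. The closest pair was Hspa8 and Hsp90ab1 (r = 0.87, and 0.89 after removal of group means), the constitutive HSP70 and HSP90. Hspa8 and Hsph1 had r = 0.77, which dropped to 0.59 after removal of group means. Among inducible genes, Hspa1b and Dnajb1 had r = 0.73, which was 0.68 after removal of group means, and Hspa1a and Hspa1b 0.64, which was 0.78 after it. Hsp90aa1 and Hsp90ab1, though paralogs, had r = 0.23 (0.20 after removal). Of the 11995 genes with a mean of at least 5 CPM, leaving out the 10, the one with the pattern closest to Hspa8 was Stip1 (r = 0.92), which encodes the adaptor between HSP70 and HSP90. Xbp1 (0.83), Fxr2 and Ptov1 (both 0.82) and Gm8355 (0.81) followed. After removal of group means, r with Hspa8 was 0.92 for Stip1, 0.64 for Xbp1, 0.70 for Fxr2, 0.84 for Ptov1 and 0.70 for Gm8355. The genes closest to Hsph1 were Mtmr4 and Srrt (both 0.90), Xbp1 (0.86), Snx27 (0.83) and Mllt6 (0.82). Those closest to Hspa1b were Diap1 (0.80), Dynll1 (0.76), Fndc4 and Cdk2ap2 (both 0.75) and Snhg12 (0.74). After removal of group means, r was 0.71 to 0.83 for the genes listed with Hsph1 and 0.68 to 0.80 for those listed with Hspa1b.

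The partners of these chaperones were read from a list of 59 other genes of the pathway, all of which passed the filter in each comparison. Where 0.543% of all genes tested were called under NACET in old mice, 1 of the 59 rose and 0 fell. It was Hspa5, the HSP70 of the endoplasmic reticulum (log2 change 0.38, SE 0.06, adjusted p by edgeR 0.0295), and its adjusted p was 0.0684 to 0.0829 in the 4 fits without old control replicate 2 or 4 or old NACET replicate 3 or 4. It was also not called with all 4 groups in the fit (0.163), with the 668-day cohort as a covariate (0.168) or with 668-day mice only (0.524). The median log2 change of the 59 was 0.07, with 46 above 0, against 0.00 over all genes tested, of which 50.8% were above 0. Those next by p were Cct3, a subunit of the cytosolic chaperonin TRiC (0.21, SE 0.05, adjusted p 0.0545), Ahsa2, an activator of the HSP90 ATPase (0.30, SE 0.07, adjusted p 0.0659), and Stip1 (0.20, SE 0.05, adjusted p 0.0898). All 8 TRiC subunits had values above 0 (median 0.07), as did 13 of 15 HSP90 cochaperones (median 0.07) and 8 of 9 exchange factors and cochaperones of HSP70 (median 0.13), with 0 called in each list. The heat shock factor genes Hsf1, Hsf2 and Hsf4 and the gene Hsbp1, whose protein binds such factors, had log2 changes above 0. The median of these 4 was 0.07 with 0 called, and Hsf1, the main stress-responsive factor, was at 0.09 (SE 0.05). Of the 9 other J-domain genes 4 were above 0, and of the 5 other cytosolic HSP70 genes 1. Of the 4 small heat shock genes 0 were called (median 0.44), and the lens crystallin Cryab reached 953 CPM in the lens-carrying library against a median of 23.1 CPM in its group.

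With age in controls 1 of the 59 genes was called, where 1.42% of all genes tested were called. Hspa2, an HSP70 best known from the testis, was 8.14 ± 0.710 CPM in the 4 young and 16.3 ± 1.14 CPM in the 4 old control libraries (mean ± SD), and so rose with age (log2 change 0.95, SE 0.10, adjusted p by edgeR 0.000626). It was called in all 19 alternative fits. Of the 59, 16 had an unadjusted p under 0.05, against 16.3% of all genes tested, and 5 of these 16 were higher in old retina. The 59 had a median log2 change of -0.06 with 18 above 0, against -0.01 over all genes, and all 8 TRiC subunits were below 0 (median -0.14, 0 called). Under NACET in young mice 0 of the 59 were called and 1 had an unadjusted p under 0.05, the small heat shock gene Hspb1 (0.69, SE 0.30, adjusted p by edgeR 1.00). Over all genes tested in young mice, 4.36% had an unadjusted p under 0.05. Between old and young NACET 3 rose and 1 fell, where 4.88% of all genes tested were called. Hspa2 rose by 0.79 (SE 0.09, adjusted p by edgeR 7.2e-05), Ahsa2 by 0.36 (SE 0.09, adjusted p 0.0227) and Chordc1, an HSP90 cochaperone, by 0.28 (SE 0.08, adjusted p 0.0462). Bag6, listed here with the exchange factors and cochaperones of HSP70, had a log2 change of -0.18 (SE 0.05, adjusted p by edgeR 0.0372). Ahsa2 was not called without the lens-carrying library (adjusted p 0.0555), and Chordc1 and Bag6 were called in 4 and 5 of the 12 fits that left out 1 library. For the interaction 0 of the 59 were called by edgeR. An unadjusted p under 0.05 was found for 3 of the 59, against 6.19% of all genes tested. They were Hspa5 (0.37, SE 0.15), Cryab (2.98, SE 1.28) and Ahsa2 (0.34, SE 0.15). The Cryab value includes the lens-carrying library, at 953 CPM against a median of 23.1 CPM in its group. Of the 48 of these genes with a RefSeq promoter, 15 held a pair of heat shock units, against 17.0% of all genes with a promoter. A run of 3 was held by 2 of the 48, Chordc1 and Dnajb6, against 0.662% of all genes with a promoter.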

How the data were processed

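The authors extracted RNA from retinas, prepared polyA libraries (TruSeq v2) and sequenced them single end. Per the study's methods and the submitters' processing notes, reads were aligned to mm9 with TopHat2 2.1.0 (Bowtie) and counted per gene over exons with HTSeq 0.11.2, without strand. The gene annotation used and the read length are not given in the sources used here. The deposited values are raw counts, 1 table per library. The HTSeq summary rows and a nameless row (0.000941 to 0.00218% of gene counts) were left out.

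CPM were computed on each library's gene total. Counts were fitted over all genes with edgeR 4.0.16 (TMM, filterByExpr, quasi-likelihood test, two-sided, Benjamini-Hochberg adjustment over all genes tested, threshold 0.05) in R 4.3.3, using the 2 groups compared, or all 4 for the interaction. A gene is called, or said to rise or fall, when its adjusted p is under 0.05. Other fits used DESeq2 1.42.0, other scalings and filters, labelled sex or age cohort, and each library left out. The test was checked on simulated counts that gave every gene the same spread. In genes with high counts, it recovered 90% of changes of 0.5 log2 for NACET in old mice and 92.4% in young mice. The share was 86.2% for age in controls, 100% for age under NACET and 53.2% for the interaction. Changes below 0.5, such as those of the 10 members, were not simulated, so the check does not cover them. Log2 changes come from these fits, so they include TMM scaling that the CPM do not. The correlations between genes used TMM-scaled CPM. Levels per kb and exon windows used an mm9 gene annotation (GENCODE) and the mm9 genome, and promoters RefSeq sequences on GRCm38.p6.

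The members and gene lists were chosen with earlier results of these data known. All 10 members are named. Of the other pathway genes those called are named, along with the 5 genes closest in pattern to Hspa8, Hsph1 and Hspa1b. Under NACET in old mice the 3 next by p are also named. Under NACET in young mice and for the interaction, those with an unadjusted p under 0.05 are named. With age in controls such genes are not named unless called. Hsf1, Hsf2, Hsf4, Hsbp1 and Dnajb6 were named after their values were seen. The study's methods speak of male mice, whereas the labels list 4 young females.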

Additional observations from a re-analysis of the deposited data

Results flagged for a closer look

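Of the library values, 3 stood far from the rest of their group by Dixon's criterion at 95%, among 40 groups of 4 or 6 libraries (10 genes in 4 groups) tested at both ends. Chance flags about 1 in 20 groups. Hspa8 was at 242 CPM in young NACET replicate 2, with the other 5 libraries at 159 to 185 CPM. Hsph1 was at 92.9 CPM in old control replicate 3, with the other 3 at 83.2 to 83.6 CPM. Hsph1 was at 97.4 CPM in old NACET replicate 5, with the other 5 at 111 to 118 CPM. Without these libraries the log2 change of Hsph1 under NACET in old mice was 0.41 (old control replicate 3 left out, edgeR adjusted p 0.0149) and 0.40 (old NACET replicate 5 left out, adjusted p 0.00536).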

How the results depend on the processing

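Of 1140 member values under 34 alternative settings, 1123 kept their direction and side of the threshold or were not called under both, 10 lost a call, 7 gained one and 0 called values changed direction, while 78 values that were not called changed sign. For NACET in old mice, where 2 members were called, 0 were called with all 4 groups in the fit, with the 668-day cohort as a covariate and with 668-day mice only, and 1 to 2 when single libraries were left out. Those 3 fits called 1, 1 and 0 of all genes, and leaving out libraries 8 to 110, against 90, so the lower counts are not particular to the members. For age in controls, where 0 were called, DESeq2 called 2, and leaving out libraries gave 0 to 1. For age under NACET, where 0 were called, library totals only gave 1, labelled sex as a covariate 1, and leaving out libraries 0 to 1. NACET in young mice and the interaction stayed at 0 in all fits run. With the narrower classes the balance differed by 0.193 with age in controls (0.0230 with all 10 genes) and by -0.207 under NACET in old mice (-0.0535). The cause of these changes was not tested.

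Replicate numbers did not pair the samples (correlations of same-numbered libraries from -0.20 to 0.24, both signs). With a replicate block, 2 members were called for NACET in old mice (Hspa8 0.47, Hsph1 0.40) and 0 in the other comparisons, while all genes called in old mice went from 90 to 17. DESeq2 called 373 genes there, 724 rather than 234 with age in controls, and 1312 rather than 795 for age under NACET, where the block gave 422. Restricting to libraries labelled male left 69 genes called with age in controls. That restriction changes nothing for NACET in old mice, where all libraries are labelled male. Libraries without Xist and the longest coding transcript were alternatives chosen after seeing the data. Counting depth limits Hspa1a and Hspa1b most.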
